A study of Mus musculus with 15 samples.

Results

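Myc, its partner Max and genes that build ribosomes were followed in adult neural stem cells (aNSCs) of the mouse after deletion of Trrap. The 42 genes were taken by name from the 53801 genes of the count table: Myc, Mycn and Max, and 39 genes of nucleolar, RNA polymerase I, polyamine or nucleotide synthesis function. The rule that lists them uses no expression value, but the genes were chosen with earlier results of these data known. All 42 had enough reads to be tested in each comparison.

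Myc is a transcription factor that binds DNA as a heterodimer with Max, at E-boxes of the sequence CACGTG, and recruits histone acetyltransferase complexes of which the TRRAP protein is a shared subunit. Genes of ribosome biogenesis are classic Myc targets. RNA polymerase I transcribes the ribosomal RNA precursor in the nucleolus, snoRNP particles modify it, and processing factors cut it and assemble it into the small and large ribosomal subunits. In stem and progenitor cells this activity goes with growth and division.

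Neural stem cells isolated from the subventricular zone of 2-month-old C57BL6/J-129sv mice were cultured, and their poly(A) RNA was sequenced in 15 libraries, 5 in each of 3 groups. All cells carried the Rosa26-CreERT2 transgene, a tamoxifen-inducible Cre recombinase driven by a ubiquitous promoter, and 1 or 2 loxP-flanked (Fl) Trrap alleles. The first group was Trrap Fl/+ cells with no treatment, from mice 19, 24, 26, 35 and 36. The second was Trrap Fl/+ cells of the same 5 mice after 4-hydroxytamoxifen (4-OHT), which the labels give as 5 days of treatment, and the third was Trrap Fl/Fl cells of mice 27, 28, 29, 37 and 39 after the same treatment. Each group held 3 cultures from males and 2 from females by the labels. Cre removes the single floxed allele of treated Fl/+ cells and both of treated Fl/Fl cells, so exposure to 4-OHT and loss of 1 Trrap allele cannot be told apart in the Fl/+ cells. Untreated Fl/Fl cells were not analysed here, so the starting difference between the Fl/Fl and Fl/+ mice cannot be told apart from the deletion.

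Libraries held 25720034 to 32187097 assigned counts, and levels are given as CPM, counts scaled to a common library total, after TMM scaling, in the order of mice above. Trrap itself was at 193, 214, 184, 179 and 181 CPM in untreated Fl/+ cells, 138, 204, 171, 165 and 142 CPM in treated Fl/+ cells and 92.9, 115, 142, 89.2 and 82.8 CPM in Fl/Fl cells (log2 fold change -0.64 ± 0.16, adjusted p = 0.0115, edgeR quasi-likelihood test between the treated groups). Of the deleted cells, mouse 29 had the highest Trrap level, inside the range of the Fl/+ cells, and reads outside the floxed exons still count toward the gene. The sex-linked transcripts of 1 library went against its label, since the Fl/Fl culture of mouse 39, labelled female, had Xist at 0.313 CPM and 4 Y-linked genes at a summed 213 CPM. Both libraries of mouse 36, labelled male, held Xist beside Y-linked transcripts (5.89 CPM untreated and 74.7 CPM treated), and the Y-linked sum of the Fl/Fl culture of mouse 29 was 106 CPM where the other males had 177 to 235 CPM. Calls were therefore also computed without mice 36, 29 and 39. Of the markers, Sox2 was at 399.7 ± 104 CPM (SD, n = 5) and Nes at 991 ± 249.8 CPM in untreated cells, and the 6 microglial markers summed to at most 1.91 CPM in any library.

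After Trrap deletion, Myc mRNA rose and 26 of the 39 genes outside the Myc network fell. At an adjusted p under 0.05, 26 of the 42 genes were called lower in Fl/Fl 4-OHT than in Fl/+ 4-OHT cells, against a background of 15.0% of the 15036 genes tested, and 1, Myc, was called higher, against 16.8%. All 26 belong to the 39 genes outside the Myc network, of which 37 had a negative log2 fold change. The median log2 fold change of the 39 was -0.36, beside 0.02 over all genes tested. In the lists of other factors, 12 of 33 small subunit genes (36.4%) were called lower, while 3 of 30 large subunit (10%) and 2 of 11 RNA polymerase I genes (18.2%) were below or near the background. In 21 of the 42, every Fl/Fl library lay below every treated Fl/+ library, as was so for 11.4% of genes tested, and Myc was the 1 member with every Fl/Fl library above, as was so for 11.2%. Without the libraries of mice 36, 29 and 39, 13 genes were called lower, beside 8.11% of 15342 genes tested, and Myc was still called higher, beside 7.43%. The 13 calls that ended were those of Fbl, Nop58, Dkc1, Gar1, Nop14, Wdr43, Nop2, Nop16, Rrs1, Noc2l, Npm1, Ddx21 and Odc1, whose adjusted p became 0.0561 to 0.29, with log2 fold changes of -0.58 for Dkc1 (from -0.62) to -0.18 for Rrs1 (from -0.29). The median of the 39 was then -0.32. In the 39 genes, 0 were called higher by edgeR, 0 were higher at an unadjusted p under 0.05, and 0 were called higher by DESeq2. Of the 7 lists of other pathway genes below, those with 0 called higher by edgeR also had 0 by DESeq2, and at an unadjusted p under 0.05 1 gene of the Max and Mlx list was higher. CPM are shares of the counted mRNA, so less mRNA per cell and a smaller share of cells that express a gene cannot be told apart.

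Values were also taken within each series of mouse numbers. Among mice numbered below 30 (3 cultures per group), 37 of the 39 genes had a lower mean in Fl/Fl cells, with a median log2 ratio of -0.30, and among mice above 30 (2 per group) 37 of 39, with a median of -0.45. By the labels, above 30 the Fl/+ mice (35 and 36) are male and the Fl/Fl mice (37 and 39) female. Below 30, Fl/+ mouse 19 is male and 24 and 26 are female, while Fl/Fl mice 27, 28 and 29 are male. Labelled sex is therefore mixed with genotype within each series, and its part in these ratios was not tested. Of 7 cell cycle genes, 3 were called lower, among them Mki67, a marker of cycling cells, at 424 ± 105 CPM (SD, n = 5) in treated Fl/+ and 164 ± 53.8 CPM in Fl/Fl cells (log2 fold change -1.35 ± 0.25, adjusted p = 0.00243). The summed level of the 7 was 988 to 1656 CPM in the treated Fl/+ libraries and 516 to 1118 CPM in the Fl/Fl libraries, and its part in the changes of the ribosome biogenesis genes was not tested. Of 9 neuronal markers tested, 2 were called lower and 1 higher. The sum of all 10 listed was 920.0 to 1127 CPM in treated Fl/+ and 706 to 892 CPM in Fl/Fl libraries, which did not overlap. The median log2 fold change of the 9 tested was -0.46. Of the others, 1 of 7 astrocyte markers was called higher. Over all genes tested, 15.0% were called lower and 16.8% higher. The shares of neuronal and astrocyte markers called higher were thus below the background. The shares of cell cycle genes and neuronal markers called lower were above it, in lists of 7 and 9 genes. In the neural stem cell list, 3 of 10 markers were called lower, also above 15.0%, with sums of 9659.5 to 11692 CPM and 8014 to 12317 CPM. The part of these markers in the changes was not tested either.

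**Figure D1:**
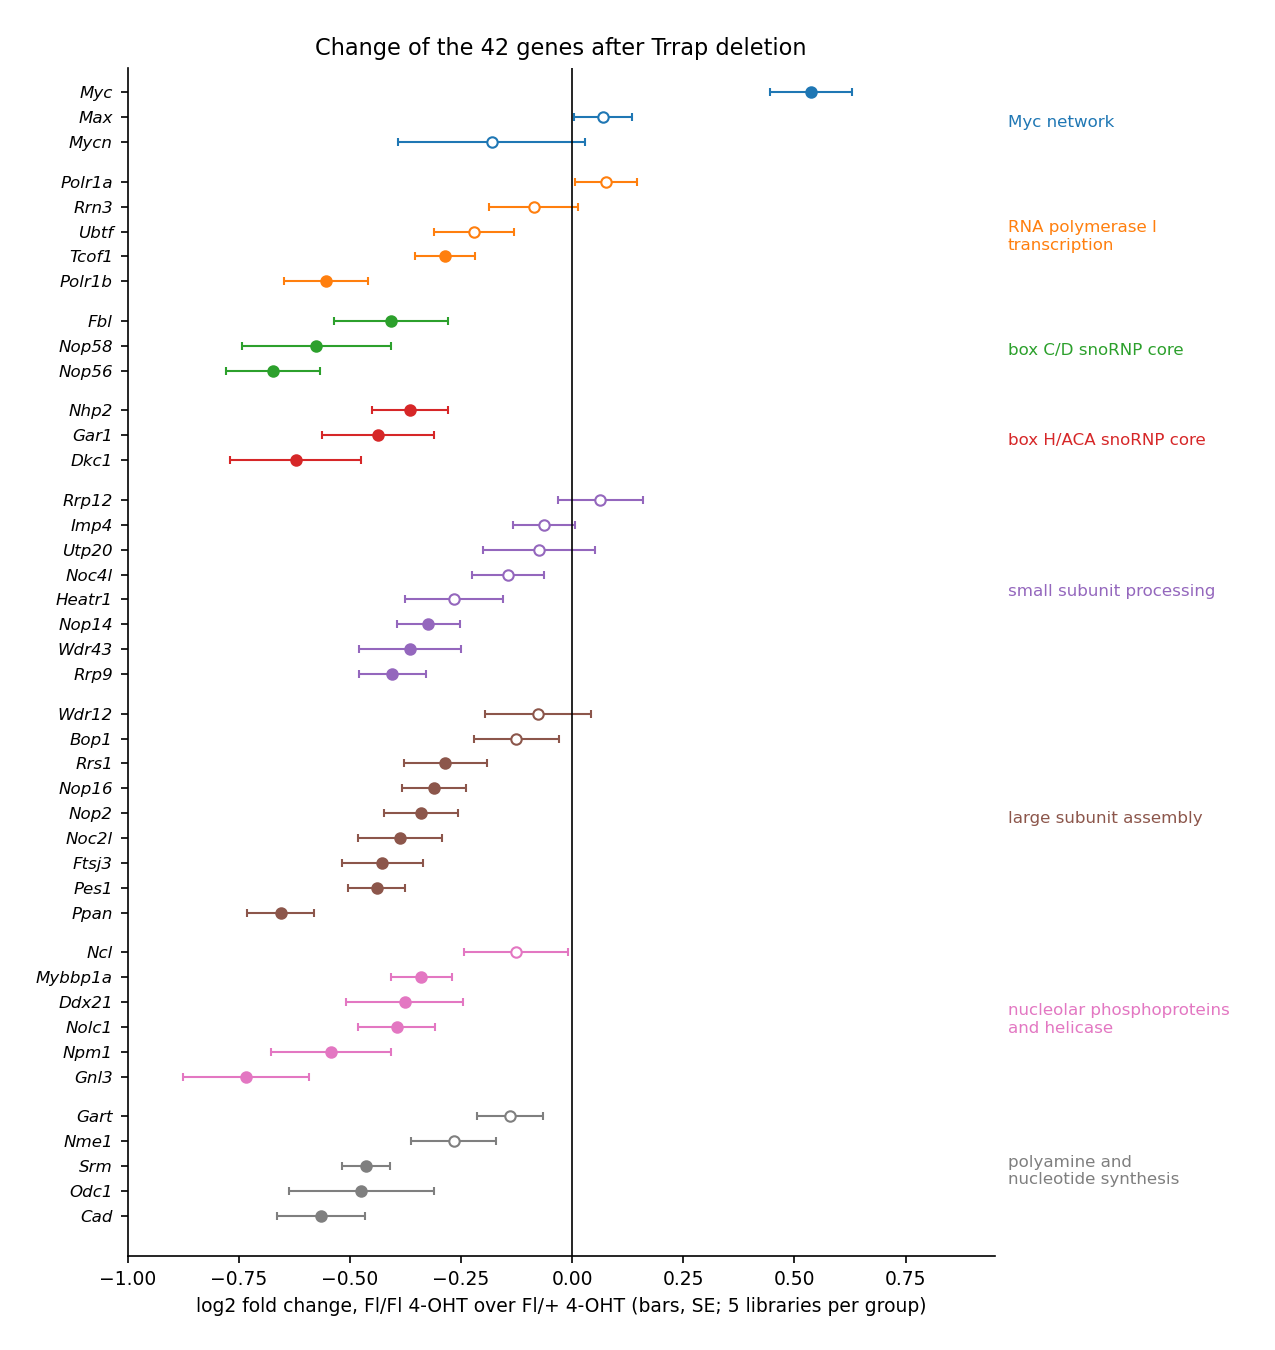
Log2 fold change of each of the 42 genes in Fl/Fl 4-OHT over Fl/+ 4-OHT cells, by role, with bars for the SE (5 libraries per group) and filled points for an adjusted p under 0.05. Myc is the 1 filled point above 0, at 0.54, and the 26 filled points below 0 run from -0.29 for Tcof1 and Rrs1 to -0.73 for Gnl3.

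Myc (chr15:61985391-61990374 in GRCm38) was at 180.0, 171, 189.8, 157 and 147 CPM in untreated Fl/+ cells, 191, 171, 197, 197 and 168 CPM in treated Fl/+ cells and 259.7, 268, 258, 227 and 313 CPM in Fl/Fl cells. The Fl/Fl libraries were all above both other groups, and the 2 Fl/+ groups overlapped. The mean rose from 185 ± 14 CPM to 265 ± 31.1 CPM (SD, n = 5 each), a 1.45-fold rise (log2 fold change 0.54 ± 0.09, adjusted p = 0.00159). An exact two-sided permutation test over all arrangements of the 10 libraries gave p = 0.00794, the smallest it can give. The log2 ratio of the means was 0.49 within the mice below 30 and 0.57 within those above 30, and the adjusted p was 0.0271 without mice 36, 29 and 39. Within each series, labelled sex is mixed with genotype. Against untreated Fl/+ cells, Myc in Fl/Fl cells had a log2 fold change of 0.66 ± 0.10 (adjusted p = 0.000981).

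Mycn, the paralog of Myc best known from the developing brain, had a level of 1.88 CPM per kb of exon in untreated cells, where Myc had 62.2. Its libraries read 7.45, 5.41, 8.25, 6.04 and 3.83 CPM untreated, 8.58, 8.07, 7.11, 9.5 and 7.26 CPM in treated Fl/+ and 6.59, 7.34, 5.08, 5.26 and 11.1 CPM in Fl/Fl cells. The groups overlapped throughout, and the library labelled mouse 39 was the highest of the 15. No difference was called (log2 fold change -0.18 ± 0.21, adjusted p = 0.542, exact permutation p = 0.294).

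Max, the obligate DNA-binding partner of Myc and of its antagonists, did not pass the test after Trrap deletion. It was at 112, 111, 119, 98 and 85.9 CPM in untreated Fl/+ cells, 84.4, 72.9, 82.5, 76.8 and 79 CPM in treated Fl/+ cells and 82.5, 80.6, 88.6, 76.8 and 82.1 CPM in Fl/Fl cells. The treated groups overlapped, and both lay mostly below the untreated cells. Between the treated groups the log2 fold change was 0.07 ± 0.06 (adjusted p = 0.44, exact permutation p = 0.317).

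**Figure D2:**
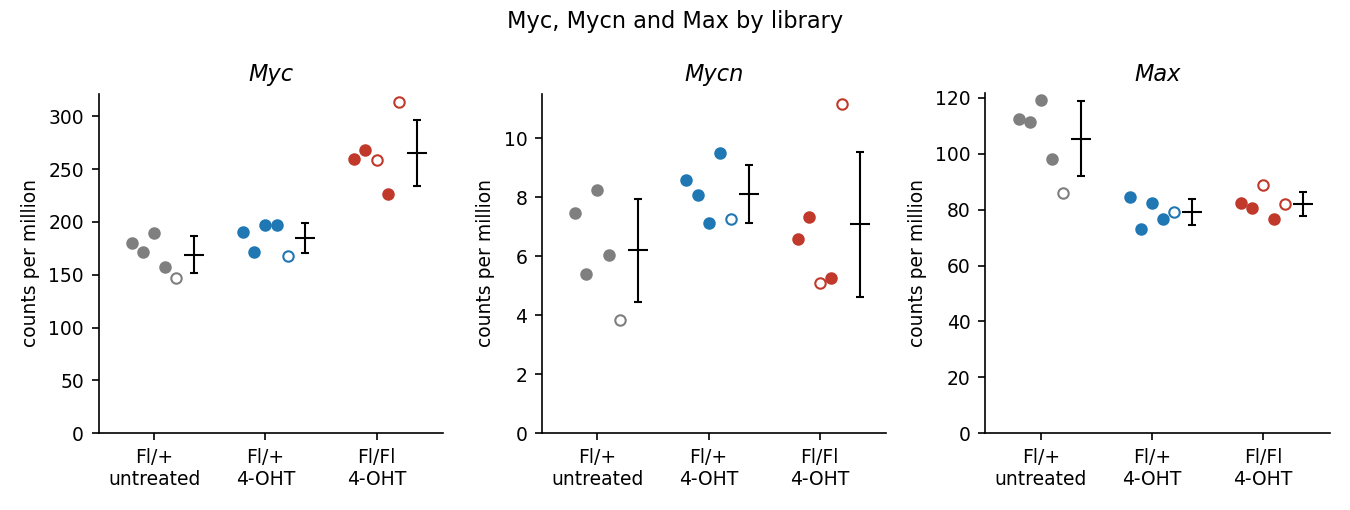
Levels of Myc, Mycn and Max in CPM on axes from 0, 1 point per library, with the mean and SD (n = 5) beside each group and open points for mice 36, 29 and 39. The 5 Fl/Fl points of Myc, from 227 to 313 CPM, sit above the other 10, whereas Max separates the untreated cells from the treated Fl/+ cells and Mycn separates no group.

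The other genes of the Max and Mlx network, which hold the MXD proteins, MNT and MGA that compete with Myc for Max, were measured as a list of 11. Of these, 7 were called lower and 0 higher by edgeR, beside 15.0% and 16.8% of all genes tested. The median log2 fold change was -0.33. Mxd3 fell most, from 18.3 ± 3.13 CPM to 8.84 ± 2.99 CPM (log2 fold change -1.03 ± 0.23, adjusted p = 0.00649).

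CACGTG was searched on both strands, in which it reads the same, in the promoters of the members, taken from RefSeq on GRCm38.p6 as 250 bases before to 50 after a start site. Of 34 members with a promoter in the table, 9 held the motif, or 26.5%, where 8.09% of all 27025 genes did. All members were tested, whereas the 27025 include genes that were not, so these shares are not like for like. Of the genes tested that have a promoter in the table, 1271 held the motif and 9750 did not. Fbl, Bop1, Rrs1, Myc, Srm, Npm1, Tcof1 and Rrp12 had no entry. All matches are shown because they are the letters that Myc and Max bind, with the motif in capitals and up to 12 bases on each side, cut where the promoter ends, in the direction of the gene.
Imp4: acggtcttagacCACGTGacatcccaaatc
Max: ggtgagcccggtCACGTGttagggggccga
Mybbp1a: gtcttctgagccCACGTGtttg
Nme1: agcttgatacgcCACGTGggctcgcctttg
Nme1: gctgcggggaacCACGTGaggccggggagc
Nop2: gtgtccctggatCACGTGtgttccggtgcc
Pes1: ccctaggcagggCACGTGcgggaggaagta
Rrn3: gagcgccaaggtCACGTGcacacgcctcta
Rrn3: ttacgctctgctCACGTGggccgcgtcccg
Utp20: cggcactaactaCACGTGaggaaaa
Wdr43: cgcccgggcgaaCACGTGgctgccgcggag
Rrn3 was the 1 gene with 2 matches in 1 promoter, whose motifs start 215 and 48 bases before its start site. The stretches shown for it are chr16:13780472-13780501 and chr16:13780639-13780668. In Max the motif starts 3 bases before the start site, within chr12:76962234-76962263, and in Nop2 60 bases before it, within chr6:125131811-125131840. Nme1 held 1 in each of 2 promoters. The matches in Mybbp1a, Pes1, Utp20 and Wdr43 lie after the start site. Bases just after the start site were found near the start of an annotated transcript of the gene in 30 of the 43 member promoters. Distances from the start site are less certain for the rest.

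Of the 9 members that held it, 4 were called lower after Trrap deletion (Mybbp1a, Nop2, Pes1 and Wdr43) and Rrn3, with 2 matches, was not. Of the 25 members without it, 17 were called lower. Over the genes tested that have a promoter in the table, 15.5% of the 1271 with CACGTG and 15.6% of the 9750 without it were called lower, and 18.2% and 17.5% were called higher. A match is a description of these letters and not a bound site.

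Of the 5 genes of RNA polymerase I transcription, 2 were called lower and 0 higher. Over all genes tested the shares were 15.0% and 16.8%, here and for the role groups below. Polr1b (chr2:129100995-129126594), which encodes the second-largest subunit of the polymerase, was at 33.7, 29.7, 34.5, 30.6 and 32.8 CPM in untreated cells, 46.2, 33.8, 37.8, 37.6 and 38.3 CPM in treated Fl/+ cells and 27.4, 25.5, 23.7, 25.1 and 29 CPM in Fl/Fl cells. The Fl/Fl libraries lay below all others (log2 fold change -0.55 ± 0.09, adjusted p = 0.00157). Tcof1, the nucleolar protein treacle that links the polymerase to its template, read 65.8, 64.2, 61.8, 54.4 and 64.3 CPM untreated, 71.4, 69.7, 76, 73 and 74.4 CPM in treated Fl/+ and 63.7, 56.3, 57.6, 53.8 and 64.5 CPM in Fl/Fl cells. The treated groups did not overlap (log2 fold change -0.29 ± 0.07, adjusted p = 0.00824), and the Fl/Fl and untreated cells did. Polr1a, the largest subunit, had values of 73.7, 59, 62.1, 73.8 and 82.4 CPM untreated, 92.8, 98, 83.1, 101 and 88.8 CPM in treated Fl/+ and 98.8, 102, 92.6, 90.2 and 101 CPM in Fl/Fl cells. Both treated groups were above the untreated cells and overlapped each other (log2 fold change 0.08 ± 0.07, adjusted p = 0.426 between them). Whether the changes of these 2 subunits of 1 enzyme differ was not tested. Ubtf, which binds along active ribosomal DNA, had a log2 fold change of -0.22 ± 0.09 (adjusted p = 0.082), and Rrn3, the initiation factor, of -0.09 ± 0.10 (adjusted p = 0.543).

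Among 11 other subunits and factors of the polymerase, 2 were called lower and 0 higher, near the background of 15.0% for lower calls. These were Polr1c, at 60.0 ± 4.7 CPM in treated Fl/+ and 39.7 ± 3.7 CPM in Fl/Fl cells (log2 fold change -0.58 ± 0.08, adjusted p = 0.000625), and Polr1d (log2 fold change -0.45 ± 0.12, adjusted p = 0.0138). Both are subunits that RNA polymerases I and III share. Of 20 genes of RNA polymerase III and its factors, 4 were called lower and 1 higher, beside 15.0% and 16.8% of all genes (median log2 fold change -0.08). The largest fall was that of the subunit gene Polr3k (log2 fold change -0.46 ± 0.10, adjusted p = 0.00521) and the 1 rise that of the initiation factor gene Brf2 (log2 fold change 0.39 ± 0.10, adjusted p = 0.011).

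The 6 listed core genes of the snoRNPs, the particles that place 2′-O-methyl groups (box C/D) and pseudouridines (box H/ACA) on ribosomal RNA, were called lower. Nop56 (chr2:130274430-130279313), a scaffold of the box C/D particle, was at 68.9, 54.1, 56.3, 63.8 and 78.8 CPM in untreated cells, 80.8, 59.4, 61, 73.2 and 77.4 CPM in treated Fl/+ cells and 45.8, 41.6, 45.3, 37.1 and 48.5 CPM in Fl/Fl cells. Every Fl/Fl library was below the other 10 (log2 fold change -0.67 ± 0.11, adjusted p = 0.00101). Its partner scaffold Nop58 read 108, 91.6, 103, 116 and 138 CPM untreated, 124, 85.6, 77.7, 133 and 144 CPM in treated Fl/+ and 86.3, 70.4, 66.6, 67.5 and 83.9 CPM in Fl/Fl cells. Here the treated Fl/+ cultures of mice 24 and 26 lay inside the Fl/Fl range (log2 fold change -0.58 ± 0.17, adjusted p = 0.0227). Fbl, the methyltransferase fibrillarin, was counted at only 6.91, 5.09, 5.81, 7.31 and 7.73 CPM untreated, 8.11, 5.82, 7.11, 6.66 and 7.76 CPM in treated Fl/+ and 5.56, 5.23, 5.57, 5.06 and 5 CPM in Fl/Fl cells. The 2 treated groups did not overlap (log2 fold change -0.41 ± 0.13, adjusted p = 0.0313). The call for Fbl was lost when single libraries were left out (adjusted p = 0.0707 without mouse 19 and 0.0596 without mouse 36 in the Fl/+ 4-OHT group and 0.0587 without mouse 28 and 0.0581 without mouse 39 in the Fl/Fl 4-OHT group). It was also lost in edgeR with library size alone as scaling (adjusted p = 0.0539) and with no filter on low counts (0.0865).

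Dkc1 (chrX:75095854-75109777), the pseudouridine synthase dyskerin, was at 47.5, 37.8, 36.3, 58.3 and 73.8 CPM in untreated cells, 73.2, 54.1, 48.7, 69 and 78.9 CPM in treated Fl/+ cells and 48.7, 39.2, 37.1, 34.6 and 48.5 CPM in Fl/Fl cells. The treated groups met without overlap, the highest Fl/Fl library lying just under the lowest treated Fl/+ one (log2 fold change -0.62 ± 0.15, adjusted p = 0.00831), and the Fl/Fl and untreated cells overlapped. Gar1, a small subunit of the same particle, read 25.9, 19.8, 22.9, 23.5 and 25 CPM untreated, 25.2, 24.5, 23.6, 29.1 and 27.7 CPM in treated Fl/+ and 23.7, 18.3, 17.2, 14.9 and 20.9 CPM in Fl/Fl cells. The treated groups met at 1 library each (log2 fold change -0.44 ± 0.13, adjusted p = 0.0223). Nhp2, a further subunit, was at 114, 84.9, 75.4, 75.1 and 90.1 CPM untreated, 70.8, 74.1, 65, 79.5 and 70.6 CPM in treated Fl/+ and 56.3, 52.5, 47.3, 56.1 and 64.7 CPM in Fl/Fl cells. The treated groups did not overlap (log2 fold change -0.36 ± 0.09, adjusted p = 0.00802). Without mice 36, 29 and 39, Nop56 (0.0142) and Nhp2 (0.0248) kept an adjusted p under 0.05, and the values of the other 4 were 0.129 for Nop58, 0.161 for Fbl, 0.0561 for Dkc1 and 0.115 for Gar1.

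**Figure D3:**
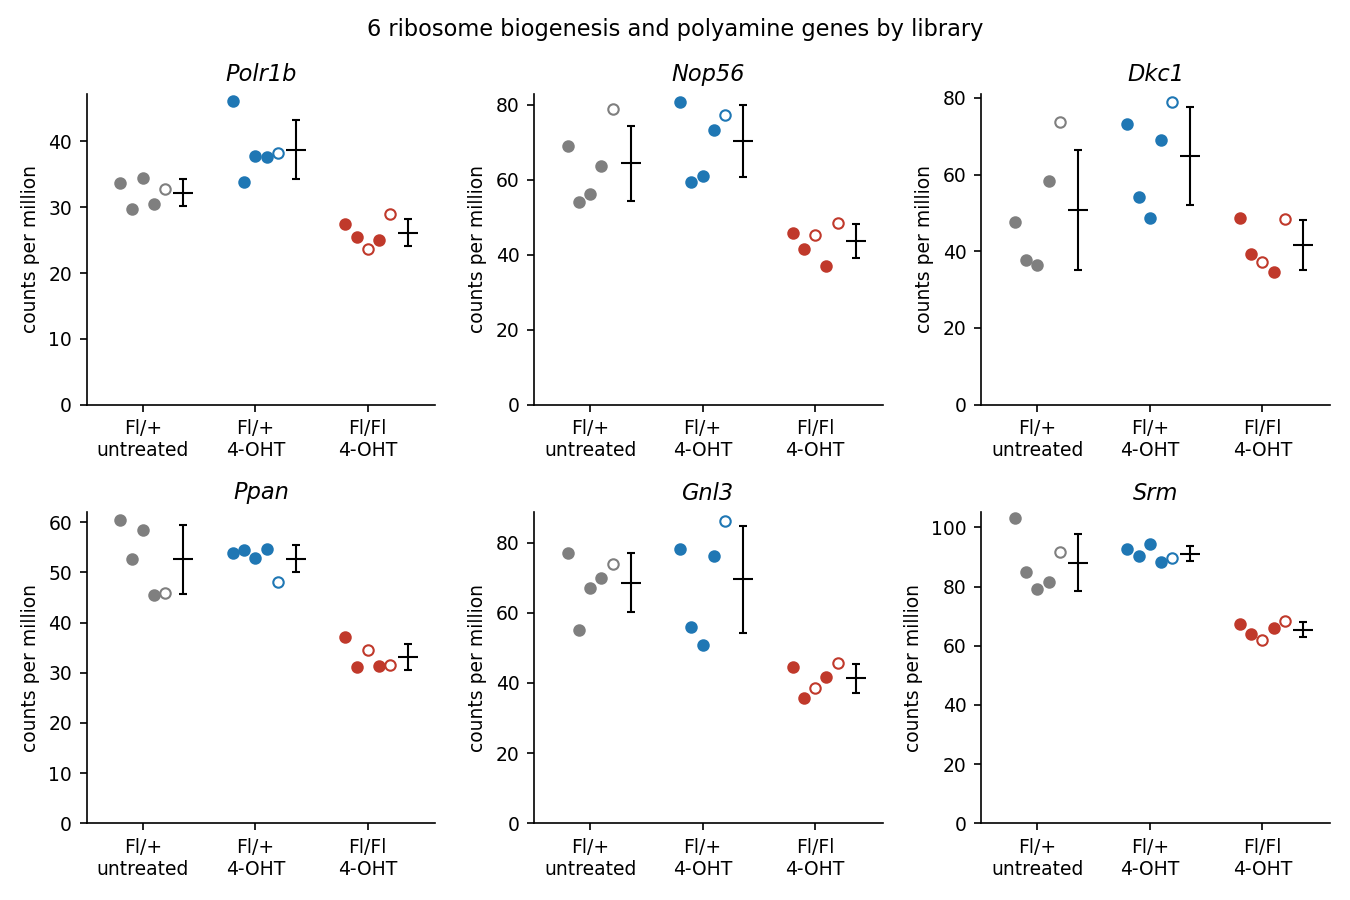
Levels of Polr1b, Nop56, Dkc1, Ppan, Gnl3 and Srm in CPM on axes from 0, 1 point per library, with the mean and SD (n = 5) beside each group and open points for mice 36, 29 and 39. In each panel the Fl/Fl points lie below the treated Fl/+ points, and for Dkc1 the untreated cells overlap both.

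Of 8 small subunit processing factors, 3 were called lower and 0 higher, with log2 fold changes of the 8 from -0.40 to 0.06. Rrp9, the U3 snoRNP protein that guides early cleavage of the precursor, was at 43.3, 34.5, 38.5, 32.4 and 37.1 CPM in untreated cells, 31.5, 33.6, 36.8, 37.2 and 34.6 CPM in treated Fl/+ cells and 27, 26.1, 24.3, 24.9 and 27.6 CPM in Fl/Fl cells. The Fl/Fl libraries were below all others (log2 fold change -0.40 ± 0.08, adjusted p = 0.00271). Wdr43, a component of the small subunit processome, read 77.1, 69.9, 78.8, 79.5 and 95 CPM untreated, 93.5, 73.4, 64.8, 95.3 and 102 CPM in treated Fl/+ and 70.3, 64.8, 62.6, 62.4 and 69.2 CPM in Fl/Fl cells. The treated Fl/+ culture of mouse 26 lay among the Fl/Fl libraries (log2 fold change -0.36 ± 0.11, adjusted p = 0.032). Leaving out 1 library at a time ended that call 6 times (adjusted p = 0.0638 without mouse 19, 0.0615 without mouse 35 and 0.0603 without mouse 36 in the Fl/+ 4-OHT group and 0.0564 without mouse 28, 0.0548 without mouse 29 and 0.0516 without mouse 37 in the Fl/Fl 4-OHT group). Library size alone as scaling in edgeR also ended it (adjusted p = 0.0612). Rrp12, which acts in export and maturation of pre-ribosomes, had values of 23.3, 19.5, 21.7, 24.8 and 31.4 CPM untreated, 30.7, 22.3, 26.6, 27.6 and 26.5 CPM in treated Fl/+ and 27.1, 25.8, 25.6, 28.8 and 31 CPM in Fl/Fl cells. The groups overlapped (log2 fold change 0.06 ± 0.10, adjusted p = 0.648).

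The third called gene, Nop14, had a log2 fold change of -0.32 ± 0.07 (adjusted p = 0.00595) with no overlap between the treated groups. The remaining 4, Utp20, Heatr1 and Imp4 of the small subunit processome and the assembly factor Noc4l, had log2 fold changes of -0.27 to -0.06 and adjusted p values of 0.0851 to 0.687. Heatr1 passed the threshold without single treated Fl/+ libraries (adjusted p = 0.0455 without mouse 24 and 0.0189 without mouse 26 in the Fl/+ 4-OHT group). In the list of 33 other small subunit factors, 12 were called lower and 1 higher, beside 15.0% and 16.8% of all genes (median log2 fold change -0.19). Wdr3 had the largest fall of the called genes, from 37.3 ± 4.11 CPM to 27 ± 0.939 CPM (log2 fold change -0.45 ± 0.08, adjusted p = 0.00264), and Nol6 was the 1 that rose (log2 fold change 0.23 ± 0.07, adjusted p = 0.0241).

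Large subunit assembly factors fell in 7 of 9 cases, with 0 called higher. Ppan (chr9:20888175-20892178), needed for maturation of the large subunit, was at 60.5, 52.7, 58.4, 45.6 and 45.8 CPM in untreated cells, 53.8, 54.5, 52.8, 54.6 and 48.1 CPM in treated Fl/+ cells and 37, 31.1, 34.4, 31.4 and 31.6 CPM in Fl/Fl cells. The highest Fl/Fl library was below the lowest of the other 10 (log2 fold change -0.66 ± 0.08, adjusted p = 0.000216). Pes1, of the PeBoW complex that Bop1 and Wdr12 complete, read 99.9, 92.8, 96.5, 85 and 92.1 CPM untreated, 96, 88.1, 91, 93.8 and 91.9 CPM in treated Fl/+ and 68.6, 73.7, 64.5, 60.3 and 69.1 CPM in Fl/Fl cells. Again no Fl/Fl library reached the other groups (log2 fold change -0.44 ± 0.06, adjusted p = 0.000704). Wdr12 had values of 35.1, 26.2, 27.5, 35 and 37.2 CPM untreated, 39.8, 27.8, 26.7, 36.5 and 38.2 CPM in treated Fl/+ and 31.9, 31.6, 28.3, 32.1 and 34.6 CPM in Fl/Fl cells. All 3 groups overlapped (log2 fold change -0.08 ± 0.12, adjusted p = 0.654). Bop1 did not pass the test either (log2 fold change -0.13 ± 0.10, adjusted p = 0.348), so that 1 of the 3 PeBoW genes was called, and whether these 3 changes differ was not tested.

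The other 5 called genes were Ftsj3 (log2 fold change -0.43), Noc2l (-0.39), Nop2 (-0.34), Nop16 (-0.31) and Rrs1 (-0.29), with adjusted p values of 0.00502 to 0.0378. Ftsj3 and Nop2 are RNA methyltransferases and Rrs1 brings 5S RNA into the large subunit. Rrs1 (adjusted p = 0.0378) lost its call when single libraries were left out (adjusted p = 0.0717 without mouse 35 and 0.0664 without mouse 36 in the Fl/+ 4-OHT group and 0.0579 without mouse 28, 0.0687 without mouse 29 and 0.0533 without mouse 39 in the Fl/Fl 4-OHT group). It also lost it in edgeR with library size alone as scaling (adjusted p = 0.0701) and with no filter on low counts (0.068). In the list of 30 other large subunit factors, 3 were called lower and 2 higher, both below the background of 15.0% and 16.8% (median log2 fold change -0.09). The paralogs Rrp1 and Rrp1b were its called extremes. Rrp1 rose from 306 ± 19.8 CPM to 409 ± 5.41 CPM (log2 fold change 0.43 ± 0.07, adjusted p = 0.000871), and Rrp1b fell from 60.7 ± 5.38 CPM to 46.9 ± 3.4 CPM (log2 fold change -0.36 ± 0.08, adjusted p = 0.00689).

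Of 6 nucleolar phosphoprotein and helicase genes, 5 were called lower and 0 higher. Gnl3 (chr14:31012433-31019152), nucleostemin, a nucleolar GTPase known from stem cells, had the largest fall of the 42 genes. It was at 76.9, 55.1, 66.9, 70.0 and 73.9 CPM in untreated cells, 78, 55.9, 50.9, 76.3 and 86.2 CPM in treated Fl/+ cells and 44.6, 35.8, 38.6, 41.8 and 45.8 CPM in Fl/Fl cells. No Fl/Fl library overlapped the other groups (log2 fold change -0.73 ± 0.14, adjusted p = 0.00313). Npm1, the histone chaperone nucleophosmin, read 206, 249.8, 205, 189 and 228 CPM untreated, 209, 159, 152, 207 and 253 CPM in treated Fl/+ and 148, 125, 123, 122 and 149 CPM in Fl/Fl cells. The Fl/Fl cells were below all others, the nearest treated Fl/+ library being that of mouse 26 (log2 fold change -0.54 ± 0.13, adjusted p = 0.011, or adjusted p = 0.0613 without mice 36, 29 and 39). Ncl, nucleolin, had values of 831, 869.9, 900.3, 848 and 980.2 CPM untreated, 789, 718, 660.3, 939 and 972 CPM in treated Fl/+ and 819.7, 734, 677, 661 and 801 CPM in Fl/Fl cells. The treated groups overlapped (log2 fold change -0.13 ± 0.12, adjusted p = 0.436). The snoRNP chaperone Nolc1 and the nucleolar Myb-binding protein Mybbp1a were called with log2 fold changes of -0.39 and -0.34 and no overlap, and the RNA helicase Ddx21 with -0.38 (adjusted p = 0.048) and overlap. Leaving out single libraries ended the Ddx21 call 7 times (adjusted p = 0.0913 without mouse 19, 0.0899 without mouse 35 and 0.0881 without mouse 36 in the Fl/+ 4-OHT group and 0.0518 without mouse 27, 0.0736 without mouse 28, 0.0875 without mouse 29 and 0.0812 without mouse 37 in the Fl/Fl 4-OHT group). In edgeR, library size alone as scaling (adjusted p = 0.0791) and no filter on low counts (0.0566) ended it too.

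In polyamine and nucleotide synthesis, 3 of 5 genes were called lower and 0 higher. Cad (chr5:31054780-31078479), the enzyme of the first steps of pyrimidine synthesis, was at 119, 109, 99.9, 115 and 155 CPM in untreated cells, 154, 171, 148, 159 and 144 CPM in treated Fl/+ cells and 115, 115, 92.9, 84.6 and 112 CPM in Fl/Fl cells. The treated groups did not overlap (log2 fold change -0.56 ± 0.10, adjusted p = 0.00179), whereas the Fl/Fl and untreated cells did. Odc1, ornithine decarboxylase, which starts polyamine synthesis and is a long-known Myc target, read 44.8, 31.3, 34.7, 57.1 and 80.7 CPM untreated, 49.99, 36.6, 38.5, 55.5 and 61.8 CPM in treated Fl/+ and 39.7, 27, 29.7, 41.6 and 34.7 CPM in Fl/Fl cells. Its groups overlapped and it passed the threshold narrowly (log2 fold change -0.47 ± 0.16, adjusted p = 0.0463). Its call was lost on leaving out single libraries (adjusted p = 0.0828 without mouse 19, 0.0925 without mouse 35 and 0.0979 without mouse 36 in the Fl/+ 4-OHT group and 0.0959 without mouse 28, 0.09 without mouse 29 and 0.076 without mouse 39 in the Fl/Fl 4-OHT group). The same held in edgeR for library size alone as scaling (adjusted p = 0.0631) and no filter on low counts (0.0503). Gart, of purine synthesis, had values of 99, 85.3, 84.1, 98.1 and 113 CPM untreated, 93.1, 89.7, 89, 95.7 and 95.6 CPM in treated Fl/+ and 90.6, 84.8, 69.9, 79.9 and 90.9 CPM in Fl/Fl cells. Those of the treated groups overlapped (log2 fold change -0.14 ± 0.08, adjusted p = 0.179).

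Srm, spermidine synthase, chosen after its values were seen, was at 103, 85, 79.2, 81.5 and 91.6 CPM in untreated cells, 92.8, 90.4, 94.6, 88.3 and 89.6 CPM in treated Fl/+ cells and 67.2, 63.8, 61.8, 65.8 and 68.4 CPM in Fl/Fl cells. The Fl/Fl libraries were below all others and the SE was the smallest of the 42 genes (log2 fold change -0.46 ± 0.05, adjusted p = 0.000221). Nme1, a nucleoside diphosphate kinase, was at an adjusted p of 0.0532, with a log2 fold change of -0.27 ± 0.10, and passed the threshold without single treated Fl/+ libraries (adjusted p = 0.0213 without mouse 24 and 0.0338 without mouse 26 in the Fl/+ 4-OHT group). It was also called by DESeq2 (adjusted p = 0.0392) and by edgeR with DESeq2 size factors (0.0482), a minimum of 10 counts in every library (0.049) or the series covariate (0.0384). Among 27 other genes of these pathways, 7 were called lower and 1 higher (median log2 fold change -0.20). Rrm2, the S-phase subunit of ribonucleotide reductase, fell most, from 142 ± 32.8 CPM to 52.7 ± 15.7 CPM (log2 fold change -1.42 ± 0.22, adjusted p = 0.00086), and Oaz2, an antizyme that restrains polyamine synthesis, rose (log2 fold change 0.44 ± 0.08, adjusted p = 0.00218).

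Of 79 cytosolic ribosomal protein genes, 77 were tested, of which 40 were called lower and 0 higher (median log2 fold change -0.43), and 76 had a negative log2 fold change. Rpl13a fell most of those called, from 61.1 ± 4.69 CPM to 25.5 ± 3.57 CPM (log2 fold change -1.25 ± 0.10, adjusted p = 4.56e-05). The summed level of all 79 was 8748 to 9922 CPM in the treated Fl/+ libraries and 6707 to 7256 CPM in the Fl/Fl libraries, which did not overlap. Many of these genes have processed pseudogenes, so uniquely mapped counts understate them.

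**Figure D4:**
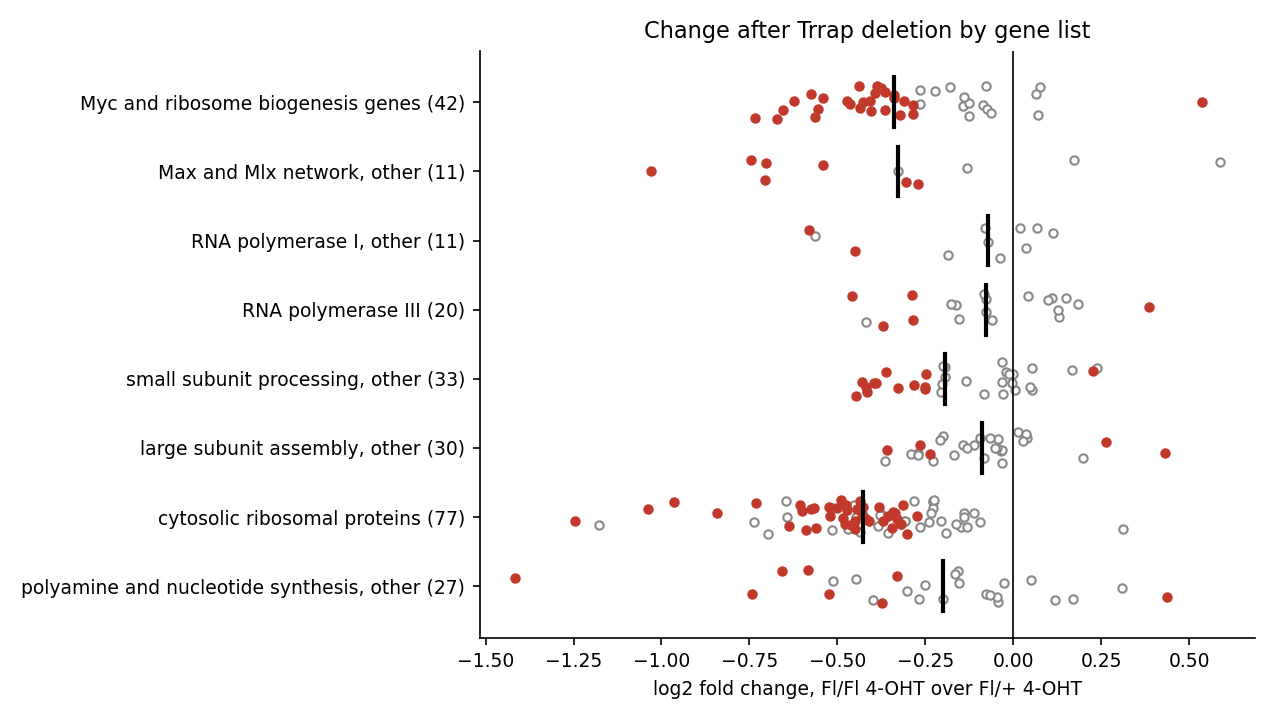
Log2 fold change in Fl/Fl 4-OHT over Fl/+ 4-OHT cells of each tested gene in 8 lists (numbers of genes in brackets), with filled points for an adjusted p under 0.05, black bars for the list medians and vertical scatter without meaning. The 42 genes have a median of -0.34 and the ribosomal proteins of -0.43, while the other large subunit factors (-0.09), RNA polymerase III genes (-0.08) and other RNA polymerase I genes (-0.07) lie near 0.

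Treated and untreated Fl/+ cells were compared for the effect of 4-OHT. The treated and untreated cells came from the same 5 mice, so values are given with and without the mouse as a replicate block. Without it, 2 genes were called higher and 1 lower, against a background of 7.34% and 6.45% of the 14821 genes tested, and with the replicate block 6 were called higher and 2 lower, against 13.8% and 11.9%, so the counts were near or below the background. The median log2 fold change of the 39 genes outside the Myc network was 0.06, beside -0.01 over all genes. These comparisons share the treated Fl/+ libraries with the Trrap comparison, so a high value there raises one and lowers the other. Markers of glia moved in the same comparison: 6 of 10 oligodendrocyte lineage markers were called higher, with sums of 3462 to 4511 CPM in untreated and 3371 to 4659 CPM in treated libraries. Of 7 astrocyte markers 3 were called lower and 1 higher, and of 10 neural stem cell markers 3 were called lower and 1 higher (median log2 fold change -0.33). With the block, 3 of 9 neuronal markers were called lower and 1 higher, and 2 of 7 cell cycle genes were called higher. Mitochondrial transcripts made up 1.72 to 3.56% of counts in untreated and 0.849 to 1.74% in treated libraries. The part of these in the values below was not tested.

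The called genes were Max, Polr1a and Cad, whose values by library stand above. Max was lower after 4-OHT in all 5 mice with no overlap between the groups (log2 fold change -0.41 ± 0.09, adjusted p = 0.0162, and 0.0105 with the replicate block). Its exact permutation p was 0.00794, and the exact sign-flip test over the 5 mice gave 0.0625, the smallest possible with 32 arrangements. Polr1a was higher in all 5 mice with no overlap (log2 fold change 0.40 ± 0.10, adjusted p = 0.0246, and 0.0141 with the block). Its call without the block was lost on leaving out single libraries (adjusted p = 0.0582 without mouse 26 in the Fl/+ untreated group and 0.0527 without mouse 19, 0.0519 without mouse 24 and 0.0608 without mouse 35 in the Fl/+ 4-OHT group). Cad rose in 4 of 5 mice, with the untreated culture of mouse 36 inside the treated range (log2 fold change 0.38 ± 0.11, adjusted p = 0.0467, and 0.0308 with the block). All but 1 of the 10 single-library omissions ended its call (adjusted p = 0.0862 without mouse 19, 0.0906 without mouse 24, 0.101 without mouse 26 and 0.0839 without mouse 35 in the Fl/+ untreated group and 0.0891 without mouse 19, 0.0982 without mouse 24, 0.0577 without mouse 26, 0.0933 without mouse 35 and 0.0624 without mouse 36 in the Fl/+ 4-OHT group). DESeq2 size factors in edgeR (adjusted p = 0.0521) and no filter on low counts (0.0758) ended it too.

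The replicate block added 5 genes. Higher after 4-OHT were Utp20 (log2 fold change 0.42 ± 0.11, adjusted p = 0.0252), Dkc1 (0.38, adjusted p = 0.0176), Polr1b (0.26, adjusted p = 0.0409) and Tcof1 (0.24, adjusted p = 0.0454), and Ubtf was lower (-0.24, adjusted p = 0.0376). Some alternatives without the block called these too. DESeq2 called Ubtf (adjusted p = 0.00833) and Tcof1 (0.0209), and edgeR with the series covariate called Ubtf (0.0329), Tcof1 (0.0335) and Utp20 (0.029). In edgeR, DESeq2 size factors called Ubtf (0.046), and library size alone (0.0323) or a minimum of 10 counts in every library (0.0436) called Tcof1. Utp20, a scaffold of the small subunit processome with 1 of the 3 largest values, was at 36.8, 36.2, 35.3, 48.5 and 67.2 CPM in untreated and 61.4, 52.2, 44, 69.7 and 66 CPM in treated Fl/+ cells, and 54.1, 52.9, 47.1, 55.4 and 66.3 CPM in Fl/Fl cells. It was higher after 4-OHT in 4 mice, while mouse 36 was high in both states (log2 fold change 0.39 ± 0.19, adjusted p = 0.207 without the block). Leaving out that mouse's untreated culture gave adjusted p = 0.0279 without mouse 36 in the Fl/+ untreated group. Without mouse 36, 4 genes were called higher and 1 lower with the block, beside 12.9% and 11.1% of 14918 genes tested. Of the 5 genes that the block added, Utp20 (adjusted p = 0.00721) and Dkc1 (0.013) were then still called. Polr1b, Tcof1 and Ubtf were not. Leaving out 1 of the other mice in the blocked fit gave 1 to 3 higher and 1 lower, beside 8.03 to 10.8% and 6.27 to 8.52%. Myc (log2 fold change 0.13 ± 0.09, adjusted p = 0.37) and Mycn (0.39 ± 0.20, adjusted p = 0.232) were not called in either fit, with exact sign-flip p values of 0.125 and 0.188.

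**Figure D5:**
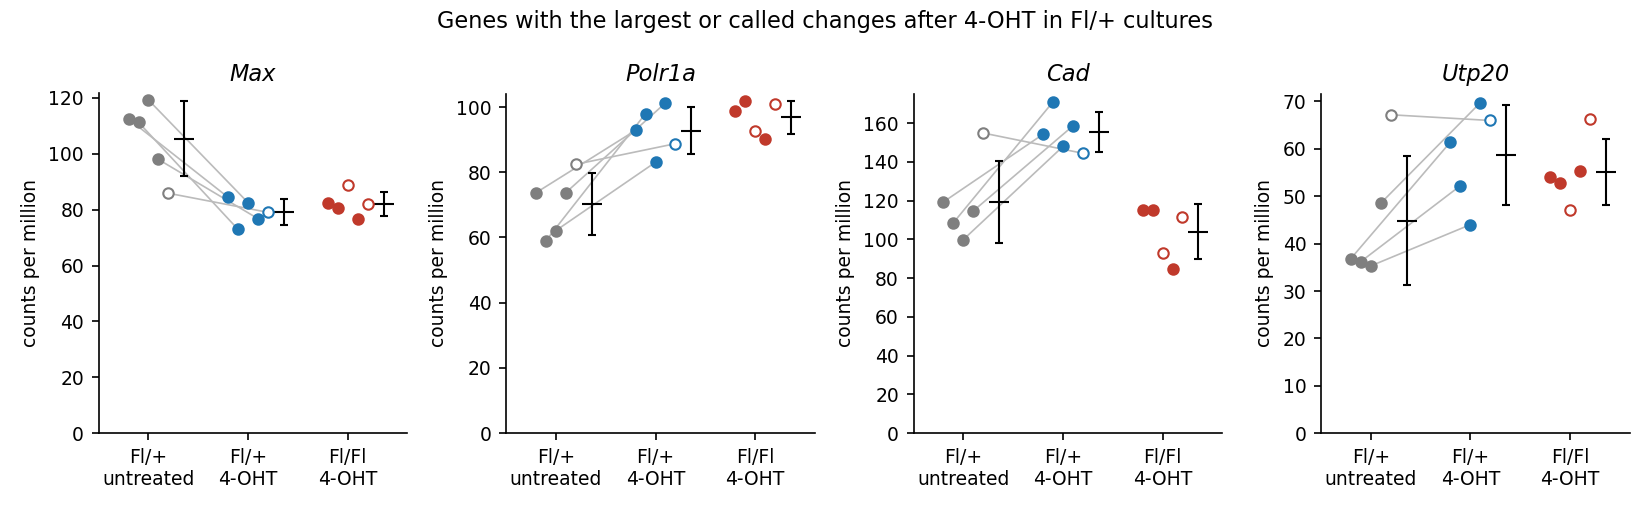
Levels of Max, Polr1a, Cad and Utp20 in CPM on axes from 0, 1 point per library, with grey lines joining the untreated and treated cultures of each Fl/+ mouse, the mean and SD (n = 5) beside each group and open points for mice 36, 29 and 39. Max falls along all 5 lines and Polr1a rises along all 5, whereas Cad and Utp20 rise along 4 and mouse 36 starts high.

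Against untreated Fl/+ cells, Fl/Fl 4-OHT cells showed 19 of the 42 genes called lower, against a background of 15.1% of 15032 genes tested, and 2 called higher, against 15.7%. The 2 higher were Myc and Polr1a (log2 fold change 0.48 ± 0.10, adjusted p = 0.00357). The 19 lower were Max (-0.35, adjusted p = 0.0174) and 18 of the 39 others, with Gnl3 (-0.72, adjusted p = 0.000756), Npm1 (-0.68, 0.000708), Nhp2 (-0.65, 0.00296) and Ppan (-0.65, 0.00114) furthest down. With library size alone as scaling, 14 were called lower, and the calls of Max (-0.25, adjusted p = 0.0697), Polr1b, Wdr43, Ftsj3 and Mybbp1a ended. With no filter on low counts, 16 were called lower, beside 6.63% of 28799 genes tested. The edgeR calls of Polr1b (adjusted p = 0.101), Wdr43 (0.102) and Mybbp1a (0.0662) ended there. The median log2 fold change of the 39 was -0.29, beside 0.00 over all genes. Cell type markers moved in the same comparison: 6 of 10 oligodendrocyte lineage markers were called higher and 1 lower (median log2 fold change 1.57), 5 of 9 neuronal and 5 of 10 neural stem cell markers were called lower, and of 7 astrocyte markers 3 were called lower and 1 higher. Their part in these values was not tested. Without mice 36, 29 and 39, 13 genes were called lower and 3 higher, beside 9.13% and 9.56% of 15329 genes tested, and the calls of Polr1b, Wdr43, Rrs1, Noc2l, Ftsj3 and Mybbp1a ended, with adjusted p values of 0.0695 to 0.165. The call ended on leaving out single libraries for Polr1b (adjusted p = 0.0533 without mouse 19 and 0.0605 without mouse 26 in the Fl/+ untreated group and 0.0675 without mouse 28, 0.0688 without mouse 29 and 0.0583 without mouse 37 in the Fl/Fl 4-OHT group), Wdr43 (adjusted p = 0.0585 without mouse 26, 0.0522 without mouse 35 and 0.0602 without mouse 36 in the Fl/+ untreated group and 0.0788 without mouse 28, 0.0808 without mouse 29, 0.0782 without mouse 37 and 0.0522 without mouse 39 in the Fl/Fl 4-OHT group) and Mybbp1a (adjusted p = 0.0516 without mouse 19 in the Fl/+ untreated group and 0.0549 without mouse 27, 0.0526 without mouse 28 and 0.063 without mouse 29 in the Fl/Fl 4-OHT group).

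Several genes that fell between the treated groups did not pass the test against untreated cells. Dkc1 had a log2 fold change of -0.27 ± 0.19 (adjusted p = 0.311) against untreated cells, Cad -0.19 ± 0.13 (adjusted p = 0.297) and Tcof1 -0.06 ± 0.08 (adjusted p = 0.644). In these 3 the treated Fl/+ libraries had the highest mean of the 3 groups, at 64.8 ± 12.8 CPM, 155 ± 10.4 CPM and 72.9 ± 2.48 CPM (SD, n = 5). Nop56, Gnl3, Npm1, Ppan and Pes1 had treated and untreated Fl/+ libraries in overlapping ranges and Fl/Fl libraries below both, with log2 fold changes against untreated cells of -0.72 to -0.46. The mean of Ubtf was 235 ± 14.3 CPM in untreated, 199 ± 10.3 CPM in treated Fl/+ and 169 ± 20.2 CPM in Fl/Fl cells (SD, n = 5). It was called lower in Fl/Fl than in untreated cells (log2 fold change -0.46 ± 0.10, adjusted p = 0.00419), while the adjusted p was 0.0513 for 4-OHT without the replicate block and 0.082 between the treated groups. DESeq2 called Ubtf lower after 4-OHT without the block (adjusted p = 0.00833).

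Per kb of merged exons, untreated Fl/+ cells held most of Ncl (86.9 CPM per kb), Npm1 (80.9) and Nhp2 (76.8), followed by Myc (62.2), Noc2l (58.3) and Srm (55.1), and least of Fbl (1.56), Mycn (1.88) and Wdr12 (2.69). In Fl/Fl cells Myc stood at 97.6 CPM per kb, above Ncl (72.5) and Npm1 (50.01), whereas in untreated cells it stood below both. Merged exons join those of every annotated transcript, so a gene can be divided by more than the length of its main mRNA. Distinct stretches of 51 bases numbered 10276 for Ncl, 11996 for Wdr12 and 2715 for Myc. The order of genes by this measure is therefore uncertain, and in CPM not divided by length Ncl was above Myc in every library. Reads with more than 1 mapping position were not counted, and stretches of 51 bases shared with other genes made up 24.1% of Npm1, 24% of Odc1, 22.9% of Pes1, 19.6% of Fbl, 19.2% of Noc2l and 18.5% of Nop56, so the levels of these genes are uncertain.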

How the data were processed

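Per the labels and the study's methods, the authors made stranded poly(A) mRNA libraries, mapped single-end reads to GRCm38 with STAR 2.5.4b and counted uniquely mapped reads per gene with featureCounts 1.5.0. What was deposited are raw gene counts, with no normalization and no molecular identifiers, so PCR copies count as reads. Reads that map to several places are left out, which lowers genes with near-identical copies. The labels and methods differ on the 4-OHT exposure, so no dose is given. The 15 columns hold 53801 genes, of which 53706 were matched to symbols, positions and merged exon lengths in GENCODE M21.

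The totals of 25720034 to 32187097 counts make 3 counts, the floor for a gene not detected, equal to 0.0932 to 0.119 CPM, a limit that covers counting error only. Counts were tested with edgeR 4.0.16 in R 4.3.3: filterByExpr with a minimum count of 10, TMM scaling and the quasi-likelihood F test on the 10 libraries of each comparison, with Benjamini-Hochberg adjustment over all genes tested and a call under 0.05. Each culture comes from its own mouse, but treated and untreated Fl/+ cultures share mice by their labels. Deviations from the group means correlated at 0.15 to 0.63 between cultures of the same mouse (14821 genes) and at -0.56 to 0.35 between different mice, and the mouse served as a replicate block in an alternative. Exact two-sided tests used log2(CPM + 0.5). No 2 libraries of a group agreed within counting noise. The edgeR script was tested on simulated counts. DESeq2 1.42.0, other scalings and filters, the mouse number series and each library left out were alternatives. The members and lists were chosen with earlier results of these data known. Members were named by rule: Myc, Mycn and Max, the 2 largest and the 1 smallest absolute log2 fold change after Trrap deletion in each other role group, the 3 largest after 4-OHT, those whose call changed, and the called extremes of each list, with promoters chosen by the most matches. Srm was added after its values were seen. Promoters are those of RefSeq on GRCm38.p6.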

Additional observations from a re-analysis of the deposited data

Results flagged for a closer look

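In each group of 5 libraries, the highest and lowest values of the 42 genes were compared with the rest by Dixon's ratio, over 126 sets of which chance alone would mark about 1 in 20. There were 4 libraries far from their group. Rrn3 was at 120.3 CPM in the untreated culture of mouse 36, where the next highest was 102 CPM. Nop16 was at 36.5 CPM in the untreated culture of mouse 19, where the next was 30.7 CPM. Ppan was at 48.1 CPM in the treated Fl/+ culture of mouse 36, below 52.8 CPM in the next lowest, and stayed above all Fl/Fl libraries. Rrs1 was at 31.7 CPM in the Fl/Fl culture of mouse 29, below 36.9 CPM in the next lowest.

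In 3 genes, all 3 Fl/+ mice labelled male moved one way after 4-OHT and both labelled female the other way. The log2 ratios of treated over untreated in mice 19, 35 and 36 against 24 and 26 were 0.20, 0.20 and 0.07 against -0.10 and -0.41 for Nop58, 0.02, 0.13 and 0.15 against -0.65 and -0.43 for Npm1, and -0.09, -0.04 and -0.25 against 0.07 and 0.08 for Gart. The mean of the males minus that of the females was 0.41, 0.64 and -0.20. These differences were not tested, and 42 genes were examined.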

How the results depend on the processing

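For Trrap deletion, Myc was called higher under all alternatives, with log2 fold changes of 0.41 to 0.58, and the genes called lower numbered 21 (library size alone) to 27 under other tests, scalings and filters, where 4052 to 5641 genes of all were called. Leaving out 1 library gave 3772 to 4734 genes, 21 to 28 members lower and 1 higher. With mice 36, 29 and 39 left out together, an alternative chosen after seeing the data that also leaves fewer libraries, 2384 genes were called in either direction and 13 members lower. With 1 library left out, the log2 fold change of Rrp12 (0.06) ran from -0.0076, without the treated Fl/+ culture of mouse 24, to 0.10.

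For 4-OHT, the mouse as replicate block gave 3809 genes, 6 members higher and 2 lower, and with 1 mouse left out it gave 3578 genes and 4 members higher (mouse 36), 2867 (19), 2685 (24), 2215 (26) and 2130 genes (35), with 1 to 3 higher in the latter 4. The mouse number series as covariate gave 3170 genes, 4 higher and 2 lower. DESeq2 gave 3003 genes, 3 higher and 2 lower, library size alone and a minimum of 10 counts in every library each gave 3 higher, DESeq2 size factors in edgeR gave 1 higher and 2 lower, and no filter gave 1 higher. Leaving out 1 library gave 1271 to 2522 genes, 0 to 3 members higher and 1 lower, with 0 higher without the treated cultures of mice 19, 24 or 35 or the untreated culture of mouse 26, and 1271 genes without treated mouse 19 and 1311 without treated mouse 35. Library size alone moved the split of all calls from 1088 higher and 956 lower to 1396 and 712.

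For Fl/Fl 4-OHT against untreated cells, leaving out 1 library gave 3700 to 4735 genes, 16 to 20 members lower and 2 to 4 higher, with 4 higher without untreated mouse 36. Without mice 36, 29 and 39, 2865 genes were called, with 13 members lower and 3 higher. Library size alone moved the split from 2357 higher and 2263 lower to 3150 and 1603. Mycn (0.20) ran from -0.017, without the Fl/Fl culture of mouse 39, to 0.33 with 1 library left out, and was at -0.076 without mice 36, 29 and 39. Where a count moved, the cause was not tested. The replicate block could be fitted for the 4-OHT comparison only, since Fl/Fl and Fl/+ cultures share no mice.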

Other observations

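Across the 39 genes outside the Myc network, the median of their log2 levels relative to each gene's mean over all libraries gives 1 value per culture. Fl/Fl cultures lay at -0.10 (mouse 27), -0.22 (28), -0.35 (29), -0.29 (37) and -0.11 (39). Of these, 27, 28 and 29 are labelled male and 37 and 39 female, and their ranges overlapped. Treated Fl/+ cultures of the mice labelled male lay at 0.21 (19), 0.24 (35) and 0.23 (36), and those labelled female at -0.02 (24) and -0.01 (26). In untreated cells the males were at 0.12, 0.06 and 0.29 and the females at -0.09 and -0.004. So the 2 female Fl/+ mice were the lowest in both states, with their treated values nearer to the Fl/Fl cultures than those of the males were. This split was seen after the values were known and was not tested, and 2 against 3 mice could not reach p = 0.05 in an exact test.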
